A study of Mus musculus with 2 samples.

Results

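Wnt signalling from the endothelium around the central veins of the liver was examined through 10 genes, namely the ligand genes Wnt2, Wnt9b and Rspo3, the genes Lgr5, Rnf43 and Znrf3 that set how strongly a cell receives the signal, and the hepatocyte target genes Axin2, Tbx3, Lect2 and Glul. They were chosen by symbol, from probe sets to which the platform annotation gives exactly 1 gene symbol. All 10 were measured, by 13 probe sets, among 22180 genes named in this way. Another 1814 probe sets carry several symbols, and 0 of those name any of the 10.

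The study compared the livers of male mice lacking Iah1 throughout the body (Iah1-KO) with those of male Iah1-WT mice. Iah1 is named after an esterase of yeast that splits isoamyl acetate. Animals of both genotypes ate standard chow up to the age of 6 weeks followed by 12 weeks on high-fat food, were caged singly, and were deprived of food for 4 hours before the tissue was taken. The sources used here do not give the strain. Both genotypes received the high-fat food, so no animal kept on chow was compared. Each genotype had 1 Affymetrix array, hybridised with the pooled RNA of 3 mice, so variation between mice could not be measured, no test of genotype was possible, and no p-value is given.

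In the liver, endothelial cells of the central vein and the adjoining sinusoids secrete Wnt2 and Wnt9b, and endothelial and stellate cells supply R-spondin 3, the product of Rspo3. These proteins keep beta-catenin active in the hepatocytes next to the central vein, which then make glutamine synthetase and a set of drug- and ammonia-handling enzymes, while hepatocytes near the portal vein make urea cycle and gluconeogenic enzymes. R-spondins bind Lgr4 and Lgr5 and so remove the ubiquitin ligases Rnf43 and Znrf3, which otherwise clear Wnt receptors from the cell surface. Axin2, Lgr5, Rnf43 and Znrf3 are induced by the pathway itself and belong to its feedback loops.

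Promoter sequences are shown for 3 hepatocyte targets that lie apart in these data: Axin2, with the largest difference of the target genes, Glul, whose probe sets disagreed, and Lect2, which hardly differed. Each is the RefSeq window of GRCm38.p6 from 250 bases before to 50 bases after the annotated start, read 5′ to 3′ on the strand of the gene. Capitals mark the letters CTTTGAT or, on the other strand, ATCAAAG, a common form of the site bound by the TCF/LEF factors that carry beta-catenin on DNA. The Axin2 window is chr11:108920099-108920398 (plus strand), that of Glul is chr1:153899679-153899978 (plus strand), and that of Lect2 is chr13:56548489-56548788 (minus strand).
Axin2: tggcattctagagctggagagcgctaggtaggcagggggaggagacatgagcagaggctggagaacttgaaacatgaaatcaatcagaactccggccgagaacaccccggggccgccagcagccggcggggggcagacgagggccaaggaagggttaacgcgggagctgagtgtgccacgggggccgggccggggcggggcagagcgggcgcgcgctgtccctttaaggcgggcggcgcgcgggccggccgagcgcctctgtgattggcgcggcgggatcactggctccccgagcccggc
Glul: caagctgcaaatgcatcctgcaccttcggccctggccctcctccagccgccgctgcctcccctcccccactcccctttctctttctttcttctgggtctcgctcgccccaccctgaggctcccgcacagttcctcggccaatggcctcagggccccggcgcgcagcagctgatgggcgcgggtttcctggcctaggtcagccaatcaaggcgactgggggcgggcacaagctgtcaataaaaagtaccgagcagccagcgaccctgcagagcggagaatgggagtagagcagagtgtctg
Lect2: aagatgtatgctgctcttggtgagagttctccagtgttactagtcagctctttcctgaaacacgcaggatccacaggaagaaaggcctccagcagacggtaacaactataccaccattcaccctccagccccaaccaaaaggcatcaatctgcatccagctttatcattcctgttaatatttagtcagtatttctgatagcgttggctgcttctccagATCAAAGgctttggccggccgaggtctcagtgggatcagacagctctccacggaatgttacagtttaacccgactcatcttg

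The table of promoters held 6 of the 10 genes, Wnt2, Wnt9b, Rnf43, Axin2, Lect2 and Glul, in 7 windows. Only the Lect2 window among these contained the motif, beginning at base 219 of the window. Of 32851 mouse windows of this length, with chromosome 18 left out, 3.73% contained it on either strand. Its first 5 letters, CTTTG or CAAAG, which overlap it by design, occurred in the windows of Wnt9b and Lect2 and in 53.9% of all windows. The Axin2 window had a GC content of 70.0% with 31 CpG dinucleotides, and the Lect2 window 48.0% with 7, against a median GC content of 52.7% over all windows. A match or its absence describes these letters in this window only.

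Values are RMA values on the log2 scale, in which each unit is a doubling of signal, and differences are Iah1-KO minus Iah1-WT. The arrays had medians of 4.10 in Iah1-KO and 4.08 in Iah1-WT. Iah1 itself, the targeted gene, was at 3.90 in Iah1-KO and 8.59 in Iah1-WT, so the labels match the values. Genes were called above the intensity filter where the higher array reached 4.68, the median over genes of the higher value, and 11090 genes did. Hepatocyte markers gave high values on both arrays, with a mean of 11.7 in Iah1-KO and 11.7 in Iah1-WT over 10 genes. None of 11 measured lymphocyte and neutrophil markers passed the filter. The only measurable error was the disagreement between probe sets of the same gene, which had a standard deviation of 0.27 for a single probe set's difference over 604 genes.

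The main picture was of small differences. Of the 10 genes, 9 were higher and 1, Lgr5, was lower in Iah1-KO, where 10845 of all 22180 genes were higher. The 9 include Rspo3, at a difference of 0.0011, and Wnt9b, below the filter. The median of all 10 differences was 0.13, beside a median of -0.01 over all 22180 genes. None of the 10 reached 1.5-fold (0.58 on the log2 scale) in either direction, where 5.18% of all genes did. The intensity filter was passed by 8 of the 10, Wnt9b and Lgr5 being the exceptions, and 3.92% of the genes above it were past 1.5-fold. Split by direction, 1.47% of those genes were higher and 2.45% lower in Iah1-KO at 1.5-fold, and 0.442% were past 2-fold either way. At a smaller difference of 0.32 on the log2 scale, 6.62% of the genes above the filter were higher and 10.4% lower. Of the members above the filter, Axin2 and Glul were beyond that size, each only by the mean of its unequal probe sets. The brighter probe set differed by 0.24 in Axin2 and by 0.0029 in Glul. Wnt9b, below the filter, was beyond 0.32 too. In 6 of the 10 (Wnt2, Rspo3, Rnf43, Znrf3, Tbx3 and Lect2) the difference was smaller than the standard deviation between probe sets of the same gene. That value pools genes of all brightness, while differences between the arrays spread less among bright genes than among dim ones.

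**Figure D1:**
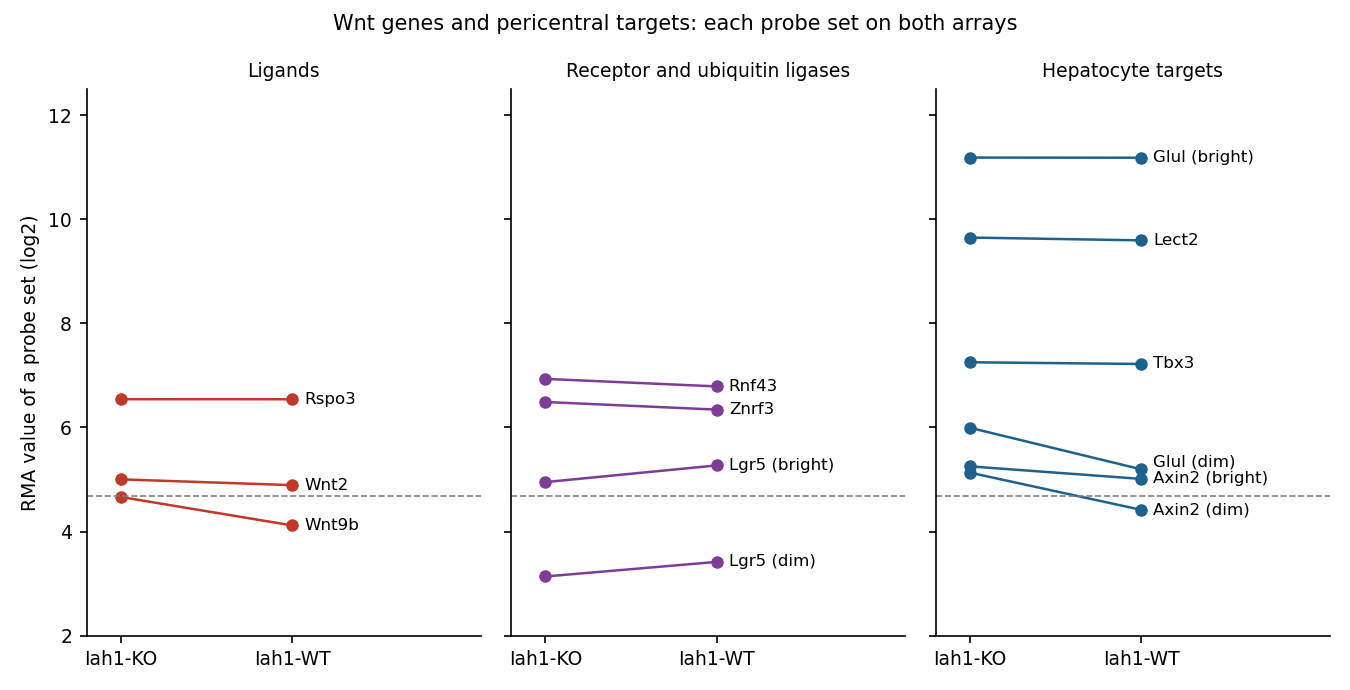
RMA value (log2, vertical axis) of each of the 13 probe sets on the Iah1-KO array and the Iah1-WT array, joined by a line, in panels for ligands, receptor and ubiquitin ligase genes, and hepatocyte targets. The dashed line is the intensity filter at 4.68, and "bright" and "dim" tell apart the probe sets of genes that have 2. Lines are nearly level for Rspo3, Tbx3, Lect2 and the bright Glul probe set, and the steepest are the dim probe sets of Glul and Axin2 and the probe set of Wnt9b.

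The ligand genes differed among themselves. Rspo3, which encodes the R-spondin that amplifies Wnt signals, was at 6.54 in Iah1-KO and 6.54 in Iah1-WT (probe set 17240012), a difference of 0.0011. Wnt2, a ligand of sinusoidal and central vein endothelium, was at 5.002 in Iah1-KO and 4.89 in Iah1-WT (probe set 17464977), a difference of 0.11 or 1.08-fold. Each of these genes thus had nearly the same value on both arrays. Wnt2 was only a little above the filter, so its small difference is less well measured than that of Rspo3. Wnt9b, the ligand best known from central vein endothelium, was at 4.66 in Iah1-KO and 4.12 in Iah1-WT (probe set 17270576). Its difference of 0.55 was the largest of the 10, yet both values lay below the filter, the higher by a narrow margin, so no fold is given. Over all 22180 genes, 2.58% were higher in Iah1-KO by 1.5-fold or more, a size that Wnt9b did not reach.

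Among the genes that set sensitivity to the ligands, the ubiquitin ligases differed little. Rnf43 was at 6.93 in Iah1-KO and 6.79 in Iah1-WT (probe set 17254809), a difference of 0.14 or 1.11-fold. Znrf3, its homologue with the same role, was at 6.49 in Iah1-KO and 6.34 in Iah1-WT (probe set 17260150), a difference of 0.15 or 1.11-fold. Lgr5, the R-spondin receptor that also marks the hepatocytes lining the central vein, was the 1 gene lower in Iah1-KO. Its brighter probe set (17245059) read 4.95 in Iah1-KO and 5.27 in Iah1-WT, a difference of -0.32. The dimmer one (17237400) read 3.14 in Iah1-KO and 3.42 in Iah1-WT, a difference of -0.28, below the filter on both arrays. The mean of -0.30 belongs to a gene value below the filter, so the brighter probe set is the better measured of the pair.

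Among the target genes, Lect2 and Tbx3 had nearly equal values on both arrays, while Axin2 and Glul had probe sets that disagreed. Lect2, a secreted hepatocyte protein that depends on beta-catenin, was at 9.65 in Iah1-KO and 9.59 in Iah1-WT (probe set 17293020), a difference of 0.05 or 1.04-fold. Tbx3, a transcription factor of pericentral hepatocytes, was at 7.25 in Iah1-KO and 7.22 in Iah1-WT (probe set 17441595), a difference of 0.03 or 1.02-fold. Both gave strong signal, and the arrays lay close together in each.

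Axin2, a scaffold of the complex that degrades beta-catenin and a widely used readout of the pathway, averaged 5.19 in Iah1-KO and 4.71 in Iah1-WT, a difference of 0.48 or 1.39-fold. Probe set 17257801 read 5.25 in Iah1-KO and 5.01 in Iah1-WT, a difference of 0.24. Probe set 17271197 read 5.13 in Iah1-KO and 4.42 in Iah1-WT, a difference of 0.72. Both were higher in Iah1-KO, but the second rests on an Iah1-WT value below the filter. The probe sets were 0.47 apart, a gap reached by 22.8% of the 604 genes with several probe sets. Which transcripts each probe set of Axin2 reads was not tested. When the genes above the filter were split by mean signal into 4 groups of like number, Axin2 was in the dimmest, where 4.36% of genes were higher in Iah1-KO by 1.5-fold and 15.6% by 0.32 on the log2 scale.

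Glul encodes glutamine synthetase, which captures ammonia in the last cells before the central vein. Its probe set 17218349, brighter than 99.4% of probe sets, read 11.18 in Iah1-KO and 11.18 in Iah1-WT, a difference of 0.0029. Its other probe set, 17548983, read 5.99 in Iah1-KO and 5.19 in Iah1-WT, a difference of 0.80 or 1.74-fold. The gene mean of 0.40 (8.59 in Iah1-KO and 8.19 in Iah1-WT) is therefore an average of a level and a raised value and describes neither. A gap of 0.80 or more between probe sets was found in 4.97% of the 604 genes, whose median gap was 0.26. Which transcripts the dim probe set reads was not tested.

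**Figure D2:**
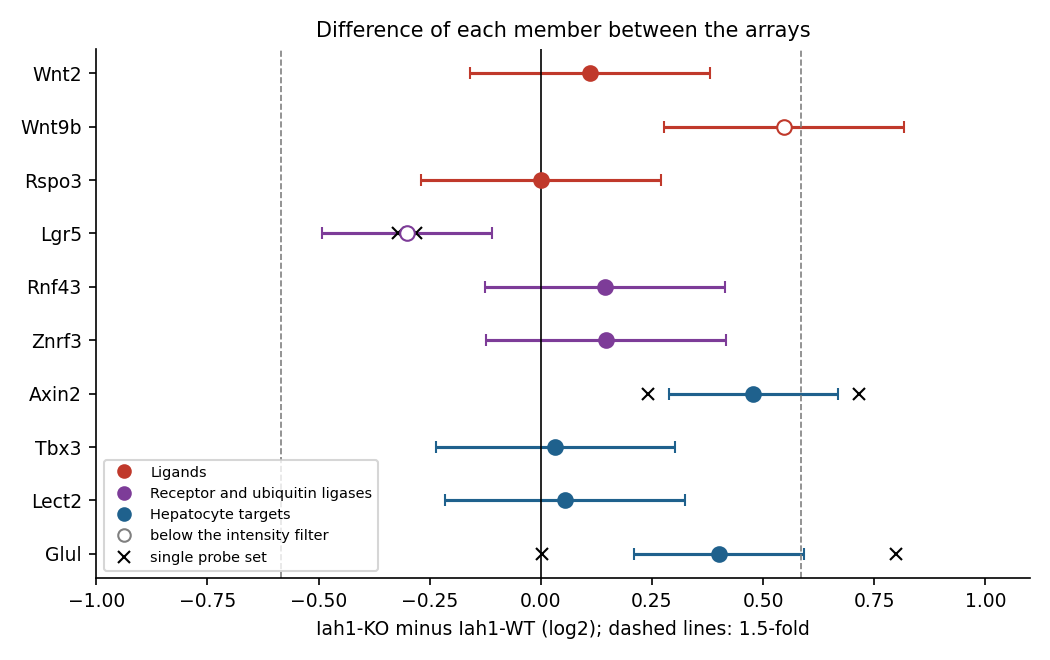
Difference of each of the 10 genes between the arrays (Iah1-KO minus Iah1-WT, log2, horizontal axis). Circles are gene means, open where the gene is below the intensity filter; bars are the 0.27 standard deviation between probe sets divided by the square root of the number of probe sets; crosses are single probe sets; dashed lines mark 1.5-fold. The crosses of Glul stand 0.80 apart at 0.0029 and 0.80, and 0 of the 10 circles lies beyond a dashed line.

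The wider pathway was read from lists of other Wnt genes, of which 5 genes stand in more than 1 list. For comparison, of all 11090 genes above the filter 4912 were above 0 and 6176 below. Among 22 other genes for Wnt and R-spondin ligands and for proteins that release Wnts, 5 passed the filter, 4 of them were above 0, and none was past 1.5-fold. Wls, the carrier that brings Wnt proteins to the cell surface, was at 5.02 in Iah1-KO and 5.42 in Iah1-WT, a difference of -0.40. Wnt5b was at 5.40 in Iah1-KO and 5.11 in Iah1-WT, a difference of 0.28. Of 17 receptors and co-receptors 13 passed, 5 above and 8 below 0, with a median of -0.07. The largest differences were in Ror2 (0.46) and Ror1 (-0.29), receptors used mainly by Wnt5-type ligands, and none was past 1.5-fold. Lgr4, the R-spondin receptor expressed across the lobule, was singled out after its values were seen, at 8.25 in Iah1-KO and 8.22 in Iah1-WT.

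Extracellular inhibitors held the widest values. Of 17 measured, 8 passed the filter, 4 above and 4 below 0, with a median of 0.06. Trabd2b, a membrane protease known to inactivate Wnt proteins, was at 4.74 in Iah1-KO and 5.78 in Iah1-WT, 2.05-fold lower in Iah1-KO. Wif1, which binds Wnts outside the cell, was at 4.77 in Iah1-KO and 4.08 in Iah1-WT, where it was below the filter, and against the filter it was at least 1.06-fold higher. Both were dim, in the range where differences between the arrays were widest: the standard deviation of differences was 0.36 for the dimmest group and 0.16 for the brightest.

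Components inside the cell were mostly level. All 14 measured genes of the destruction complex and its regulators passed the filter, 5 above and 9 below 0, with a median of -0.03. In that list Nkd2, which binds Dishevelled, was counted as past 1.5-fold by its RMA values, 4.84 in Iah1-KO and 3.97 in Iah1-WT. The Iah1-WT value was below the filter, and against the filter Nkd2 was at least 1.12-fold higher. Of 14 genes for beta-catenin and its nuclear partners 11 passed, with a median of -0.07 and none past 1.5-fold. Pygo2 was at 5.19 in Iah1-KO and 4.63 in Iah1-WT, at least 1.43-fold higher against the filter, and Bcl9, which bridges beta-catenin and the Pygo proteins, was at 5.17 in Iah1-KO and 5.64 in Iah1-WT, a difference of -0.47. Ctnnb1, the beta-catenin gene, singled out after its values were seen, was at 9.13 in Iah1-KO and 9.22 in Iah1-WT.

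Other pericentral hepatocyte genes were centred close to 0. Of 33 measured, 30 passed the filter, 18 above and 12 below 0, with a median of 0.02, beside -0.02 for all genes above the filter. The 18 include Lgr4 (0.02), described above as expressed across the lobule. Cyp7a1, whose enzyme starts the conversion of cholesterol to bile acids, was the 1 gene past 1.5-fold, at 8.08 in Iah1-KO and 9.01 in Iah1-WT, 1.90-fold lower. Some classical beta-catenin targets of this zone were singled out after their values were seen. The ethanol-metabolising Cyp2e1 was at 12.85 in Iah1-KO and 12.86 in Iah1-WT, the ornithine aminotransferase gene Oat at 11.10 in Iah1-KO and 11.13 in Iah1-WT, and the ammonium transporter gene Rhbg at 7.17 in Iah1-KO and 6.93 in Iah1-WT. The feedback inhibitor genes Notum and Nkd1, also singled out after their values were seen, went either way, at differences of 0.25 and -0.32. Periportal genes had a median of -0.07, with 8 of 22 above 0, where 4912 of the 11090 genes above the filter were. Ass1 of the urea cycle was 1.52-fold lower in Iah1-KO (5.86 in Iah1-KO and 6.46 in Iah1-WT). Brighter urea cycle genes, singled out after their values were seen, differed less: Cps1 by -0.13, Arg1 by -0.04 and Asl by 0.14. Ass1 was under 1.5-fold after centring on the median of the genes above the filter, after loess or after repeated quantile normalization.

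**Figure D3:**
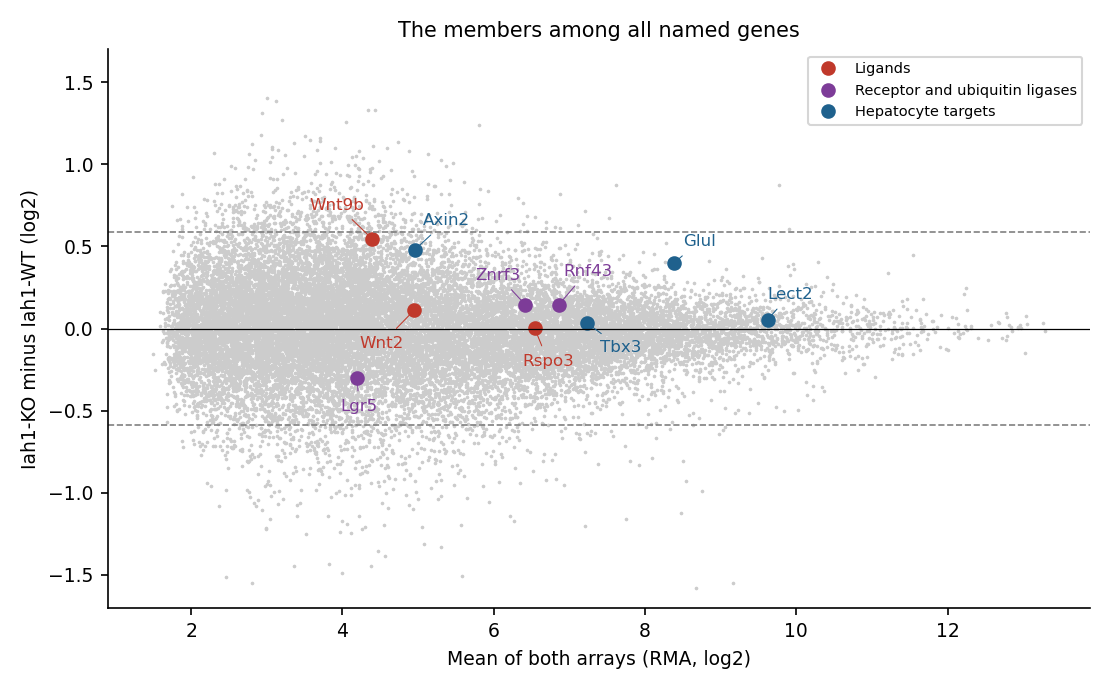
Difference between the arrays (Iah1-KO minus Iah1-WT, log2, vertical axis) against the mean of both arrays (log2, horizontal axis) for 22180 genes in grey, with the 10 genes in colour and dashed lines at 1.5-fold; 5 genes beyond 1.7 are outside the axis. The cloud is wider at low signal, where Wnt9b, Wnt2, Axin2 and Lgr5 lie, and Glul stands at 0.40 among bright genes only as the mean of 2 unequal probe sets.

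Because the ligands come from endothelium, endothelial markers were set beside them. All 20 measured markers of sinusoidal endothelium passed the filter and 19 were below 0, where 6176 of all 11090 genes above the filter were. The markers had a median of -0.48 and a mean level of 7.35 in Iah1-KO and 7.85 in Iah1-WT. In this list 7 genes were lower by 1.5-fold or more, where 2.45% of all genes above the filter were. This list of sinusoidal endothelial markers was chosen with earlier results of these data known, so its counts are descriptive only. Ehd3, an endocytic protein of these cells, was at 8.26 in Iah1-KO and 9.25 in Iah1-WT, 1.98-fold lower in Iah1-KO. Bmp2, the endothelial signal that induces hepcidin in hepatocytes, was at 5.61 in Iah1-KO and 6.54 in Iah1-WT, 1.91-fold lower. Lyve1, a hyaluronan receptor, and Tek, the angiopoietin receptor, were 1.77-fold and 1.58-fold lower. In bulk tissue, fewer cells of a type and less RNA per cell cannot be told apart.

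Rspo3 and Wnt2, the ligand genes above the filter, were not lower in Iah1-KO, at differences of 0.0011 and 0.11. The difference exceeded the sinusoidal median by 0.48 for Rspo3 and by 0.59 for Wnt2. Wnt2 was dim, at 5.002 in Iah1-KO and 4.89 in Iah1-WT, and the sinusoidal markers were brighter on average. Because RMA compresses the differences of dim probe sets, the comparison for Wnt2 is the less certain. Wnt9b was below the filter on both arrays and is not set against the markers. Of 10 measured markers used for vein endothelium, 8 passed the filter, with a median of -0.08, 2 above 0 and none past 1.5-fold. The thrombomodulin gene Thbd was at 4.84 in Iah1-KO and 5.32 in Iah1-WT, a difference of -0.48, and Cdh13 was at 4.996 in Iah1-KO and 5.33 in Iah1-WT, a difference of -0.34. Above the median of this list, Rspo3 lay by 0.08 and Wnt2 by 0.19. With 1 array per genotype, whether ligands and endothelial markers truly differed in their response was not tested.

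Markers of other cells also differed. All 13 Kupffer cell and macrophage markers lay below 0 (median -0.47), and 3 were past 1.5-fold, namely C1qb (1.75-fold lower), Vsig4 (1.64-fold) and Adgre1 (1.59-fold). Their mean level was 6.85 in Iah1-KO and 7.33 in Iah1-WT. Among all 11090 genes above the filter, 6176 lay below 0 and 2.45% were lower by 1.5-fold. The macrophage list, like the other lists, was chosen with earlier results of these data known. Stellate cell markers, which bear on Rspo3 because these cells also express it, lay below 0 in 9 of 12 cases (median -0.18), at a mean level of 6.73 in Iah1-KO and 6.81 in Iah1-WT. In that list Des was past 1.5-fold in the other direction by its RMA values, 4.68 in Iah1-KO and 3.75 in Iah1-WT, but it only just passed the filter in Iah1-KO and was below it in Iah1-WT, so no fold is given. Hepatocyte markers ranged between -0.07 and 0.10, the highest being Cebpa (0.10) and Apob (0.10). Sox9 was the 1 cholangiocyte marker of 7 above the filter, with a difference of -0.17. The part of any of these cell types in the values of the 10 genes was not tested.

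**Figure D4:**
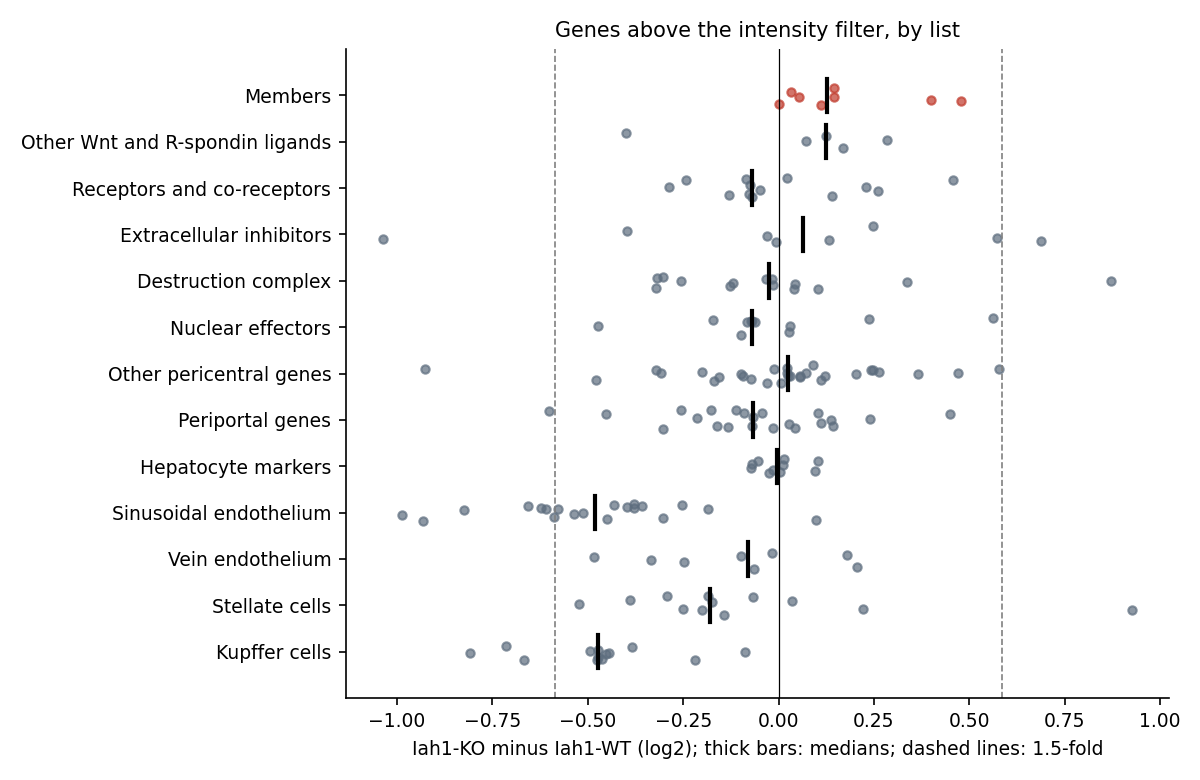
Difference of each gene above the intensity filter (Iah1-KO minus Iah1-WT, log2, horizontal axis) in the members and in 12 other lists, with a thick bar at each median and dashed lines at 1.5-fold. The members' median of 0.13 is drawn over the 8 genes above the filter, and the sinusoidal endothelium and Kupffer cell medians, at -0.48 and -0.47, lie farthest to the left.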

How the data were processed

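Liver RNA was read on 2 Affymetrix arrays, 1 for each genotype, each with 100 ng of RNA pooled from 3 mice, per the labels' protocols and the series' design text. The authors deposited log2 values per probe set. RMA and version 1.3.0 of Affymetrix Expression Console appear in the submitters' processing notes. RMA removes background, gives the arrays equal distributions of probe values and summarises probes. This compresses the differences of dim probe sets and largely removes any general shift. The medians of the probe-set values still differed slightly, at 4.10 in Iah1-KO and 4.08 in Iah1-WT. No source used here gives the genome build of the array design. The number of arrays limits the precision.

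Of 41345 probe sets, 23521 had 1 gene symbol, 1814 several and 16010 none in the platform annotation. Gene identifiers matched RefSeq (GRCm38.p6) for 21994 of 22180 genes, and 0 symbols changed. Gene values are means over probe sets. Genes were counted at 1.5-fold by their RMA values among those whose higher array reached the median of the higher values. Folds with 1 array under this filter use the filter value instead of the lower one. The genes named are the 10 members, Iah1, up to 4 genes of each list past 1.5-fold or otherwise the 2 with the largest difference, and those said to be singled out. Members and lists were chosen with earlier results of these data known. A pair of arrays gives no pattern by which to name genes like the members. Counting was tested on simulated data with planted changes well past 1.5-fold and less noise than observed. That test checks the code and does not bear on small differences. Python 3.11.15, pandas 2.3.3 and statsmodels 0.14.6 (loess) were used.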

Additional observations from a re-analysis of the deposited data

How the results depend on the processing

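No paired analysis was possible because each genotype has 1 array, and for the same reason no array could be left out. At a threshold of 0.32 on the log2 scale, 2 members above the filter were higher, Axin2 and Glul, against 0 at 1.5-fold; at 2-fold the count was 0. Taking the brightest probe set of each gene lowered Axin2 to 0.24 and Glul to 0.0029 and the median of the 10 genes to 0.08, and brought Lgr5 above the filter at -0.32. With no filter, the 75th percentile as filter, loess (span 0.4), repeated quantile normalization, subtraction of the median difference or the median of the probe sets, the counts at 1.5-fold stayed at 0, and the median of the 10 genes stayed between 0.13 and 0.15. Under the loess, quantile, median-subtraction and brightest-probe-set settings, 9 of the 10 differences were above 0. These include Rspo3, at 0.0011 to 0.0401, and Wnt9b, below the filter. With the deposited values, 10845 of all 22180 genes were above 0. The median of the destruction complex list stayed below 0 but came as close as -0.0008, and that of the hepatocyte markers crossed 0 (0.0040 after repeated quantile normalization, 0.02 after subtraction of the median). Sinusoidal endothelial markers past 1.5-fold numbered 6 after loess, quantile normalization or median subtraction, against 7. Under those 3 settings 1 other pericentral gene, Gstm3, also passed 1.5-fold, and under median subtraction so did Pygo2 and the Wnt-binding Frzb (Gstm3 and Frzb were singled out after their values were seen); with the brightest probe set Des dropped out. Dim signal limits what can be said of Wnt9b, Wnt2, Lgr5, both probe sets of Axin2 and the second probe set of Glul.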
